A study of Caenorhabditis elegans with 2 samples.

Results

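The nuclear genes of the mitochondrial respiratory chain were examined for LIN-35 binding in *Caenorhabditis elegans*. Members were the nuclear protein-coding genes with names beginning in nuo-, sdha-, sdhb-, cyc-, cox-, atp-, asb- or asg-, and this rule, which uses no binding value, gave 36 of 19973 genes. For each gene, regions were taken whose summit, the base of highest enrichment, lay within 1000 bp of the gene start. Both libraries, biological replicates 2 and 3, came from whole, mixed-sex young adults of strain YL402 and form 1 group, so no condition could be compared and no test was run. In this strain the *pie-1* promoter, active in the germline, drives LIN-35 with GFP and FLAG tags and the *lin-35* 3′ UTR, and the same transgene carries *unc-119* (+) in an *unc-119(ed3)* background. The labels name no *lin-35* mutation, so the worms are taken to keep their own *lin-35*, and the level of the tagged protein in somatic cells was not measured. In whole worms, binding in more nuclei and more binding per nucleus cannot be told apart.

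The respiratory chain passes electrons from NADH and succinate through complexes I and II to ubiquinone, then through complex III and cytochrome c to oxygen at complex IV, cytochrome c oxidase. The proton gradient built on the way drives complex V, the ATP synthase. Most subunits are encoded in the nucleus and imported, and a few core subunits are encoded by the mitochondrial genome. LIN-35 is the retinoblastoma-like pocket protein of the worm. It acts in DREAM, a repressor complex that can reach DNA through an E2F-like factor or through LIN-54, whose target letters are known as the cell cycle genes homology region (CHR).

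Sequences at regions described below are shown here, read from the RefSeq genome of build WBcel235, which is the ce11 build of the lists. Each is 30 bases long, and capitals mark a CHR or E2F motif, or the single summit base where the line says summit. The first 4 belong to the thresholded peaks upstream of *cox-5A* and *cox-6B*, and the fifth to a candidate region of *asb-1* (pooled rank 1215), which encodes a germline subunit of complex V. The *sdha-1* and *atp-4* lines show E2F motifs close to a member's own summit, at candidate regions that are not thresholded peaks (pooled ranks 3719 and 17534). The last is the motif at the thresholded peak of *Y55F3AR.2*, a gene that is no member and lies in front of *cox-18*. A motif match does not show that a factor binds there. The *atp-4* line is from the minus strand and the others from the plus strand.
cox-5A CHR, chrIII:12905112-12905141: aattaattaaaaTTTGAAactcgtgccgaa
cox-5A summit, chrIII:12905188-12905217: caacagagcggccgaCaagtgacgcataag
cox-6B summit, chrIII:2786075-2786104: tggctcgcgcagcgtCtttagtgaaaaatt
cox-6B CHR, chrIII:2786142-2786171: ggatttctgagcTTTGAAaataaccgcccg
asb-1 CHR, chrIII:4595910-4595939: ttttcttattgaTTTGAAagaaaagaagaa
sdha-1 E2F, chrX:8546220-8546249: cagcagtccctTTGGCGCatttcacgaaga
atp-4 E2F, chrV:6427409-6427438: gtccataaccaaTTCCCGCatgaaaagtgt
Y55F3AR.2 E2F, chrIV:1094331-1094360: cccgccgcgatTTGCCGCcacgggagatgt

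The deposited lists hold 20291 candidate regions for replicate 2, 30000 for replicate 3 and 30000 for the pooled alignments. A further list holds 396 thresholded peaks, those kept by the authors' cut on the irreproducible discovery rate (IDR). All 396 were identical to the pooled regions ranked 1 to 396. The pooled list is labelled as peaks and background used as input for IDR, so a candidate region in it can be background. Its −log10 q-values ran from 0.127 to 3.22, and that of the *atp-4* region at rank 17534 was 0.361. Each region carries a signal, which is the authors' own enrichment value on a scale not given in the sources used here. Regions were therefore ranked by signal within their own list, with rank 1 the highest, and ranks or signals of different lists were not compared as sizes. No source used here gives read numbers. The depth behind a region is therefore unknown, and each interval reflects counting error over genes and nothing else.

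Thresholded peaks lay at 2 members, *cox-5A* and *cox-5B*, both subunits of complex IV. That is 5.56% of 36 (exact Clopper-Pearson 95% interval 0.68% to 18.7%), beside 493 of all 19973 genes, or 2.47%. The interval holds the share of all genes, so the members' share could not be told from it at this number of genes. Among the 396 highest-ranked regions of each library alone, the same count of 2 members was found. All genes stood at 2.22% for replicate 2 and at 2.11% for replicate 3.

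Candidate regions of any rank, of ranks 1 to 3000 and of both replicates were found at larger shares of members than of all genes. A pooled candidate region of any rank was found at 26 members (72.2%, 95% interval 54.8% to 85.8%), beside 53.0% of all genes. This larger share was not particular to the members. It was 71.4% for mitochondrial and 92.3% for cytosolic ribosomal protein genes. Ranks 1 to 3000 reached 9 members (25.0%, 12.1% to 42.2%), beside 10.4% of all genes. Ranks 1 to 1000 reached 3 members (8.33%, 1.75% to 22.5%), beside 5.03%, a share that the interval holds and that the members' share could not be told from. A candidate region in each replicate list was found at 21 members (58.3%, 40.8% to 74.5%), beside 24.1% of all genes. The replicate regions in this count need not lie at the same site. Both replicate summits were within 200 bp of the pooled one at 9 of 26 members (34.6%, 17.2% to 55.7%). The interval holds the 19.5% of all genes with a region. The median best pooled rank was 5095 over the 26 members with a region and 11211 over the 10579 genes with one. Another protein-coding start lay within 1000 bp of the best summit at 15 of 26 members (57.7%), beside 30.0% of all genes with a region. The part of such shared promoters in these counts was not tested.

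**Figure D1:**
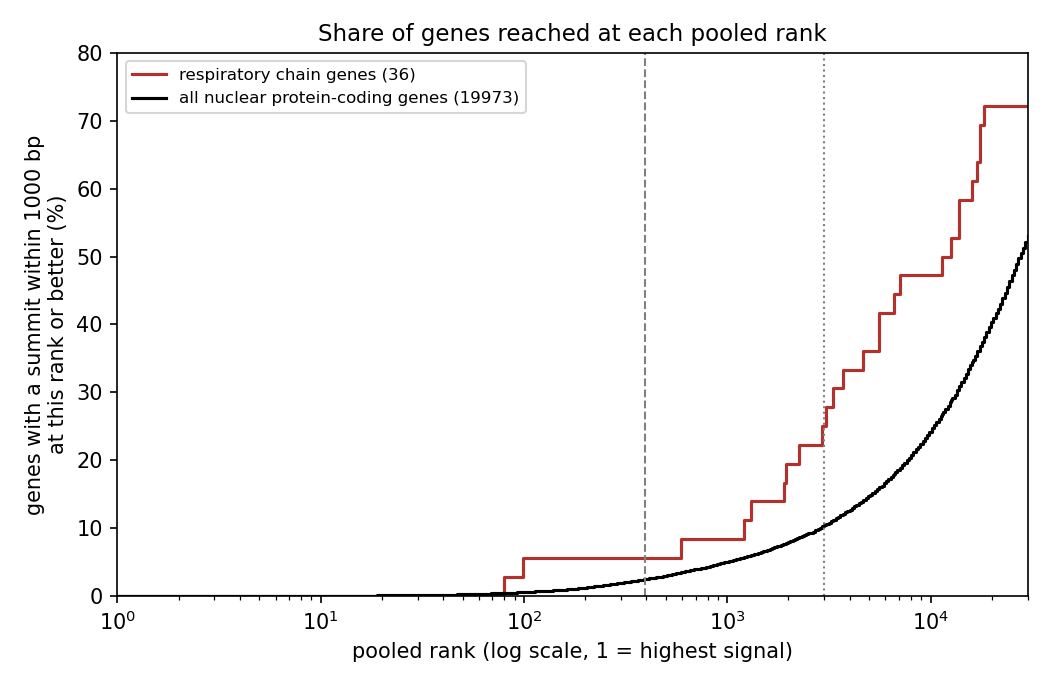
Share of genes with a pooled summit within 1000 bp of the start (y axis, percent) at or better than each pooled rank (x axis, log scale), for the 36 respiratory chain genes (red) and all 19973 nuclear protein-coding genes (black). The dashed line is rank 396 and the dotted line rank 3000, where the curves stand at 25.0% of members and 10.4% of all genes, and they end at 72.2% and 53.0%.

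The 36 members are spread over the chain as 6 genes of complex I, 3 of complex II, 3 of complex III and cytochrome c, 15 of complex IV and 9 of complex V. Pooled ranks 1 to 3000 were reached by 6 of the 15 complex IV genes, by 2 of 9 in complex V, by 1 of 6 in complex I and by none of the 6 genes of complex II, complex III and cytochrome c. Within complex IV, the 7 subunit genes (*cox-4* to *cox-7C*) gave 4 of these and the 8 assembly genes 2. Complex V had a pooled region at all 9 genes, but 7 of them ranked after 3000. The counts per complex are too small to compare with each other.

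**Figure D2:**
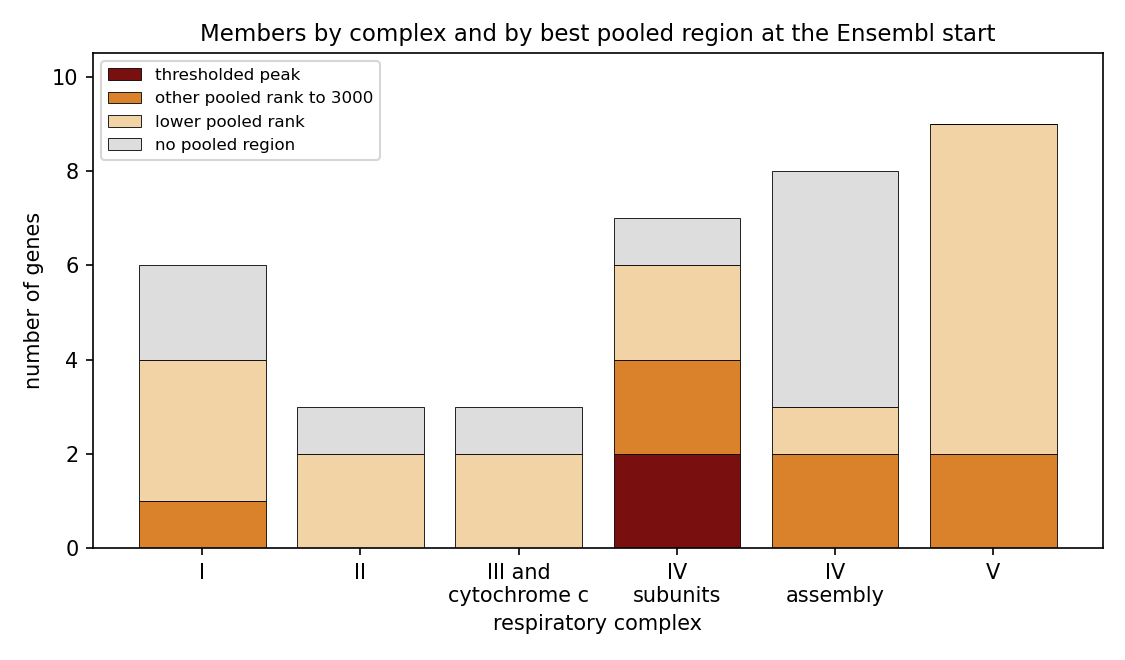
Number of genes (y axis) in each respiratory complex (x axis), with complex IV divided into subunit and assembly genes and the bars divided by the best pooled region within 1000 bp of the Ensembl start. The 2 genes with a thresholded peak are both complex IV subunits, and complex V has a pooled region at all 9 genes.

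*cox-5A* and *cox-5B* encode nuclear subunits of cytochrome c oxidase. The *cox-5A* peak (chromosome III, 12905055 to 12905350, build ce11) had a pooled signal of 72.5 at rank 80, and the gene's best region ranked 152 in replicate 2 (signal 27.0) and 42 in replicate 3 (signal 48.5). Its summit lay in intergenic sequence 288 bp upstream of the start, and the replicate summits were 49 bp and 5 bp from it. The *cox-5B* peak (chromosome I, 9788570 to 9788865) had a pooled signal of 65.3 at rank 99, with rank 133 in replicate 2 (signal 30.1) and rank 99 in replicate 3 (signal 32.3). Both genes were thus among the 396 highest-ranked regions of each library. The *cox-5B* summit lay 7 bp upstream of the Ensembl start and 291 bp upstream of the RefSeq start. No other protein-coding start lay within 1000 bp of either summit, whereas 65.1% of all genes with a thresholded peak shared it with another start.

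A further peak emerged when the gene starts were examined after the values were seen. The Ensembl model of *cox-6B*, another complex IV subunit, begins at 2699663 on chromosome III because of 1 long transcript, and no list had a region within 1000 bp of that position. RefSeq, like the gene's other Ensembl transcript, starts the gene 86539 bp further on, at 2786202. There a thresholded peak (2785942 to 2786237) had its summit 112 bp upstream, with a pooled signal of 38.5 at rank 258. The best region ranked 159 in replicate 2 (signal 26.0) and 8213 in replicate 3 (signal 8.16), so it was among the 396 highest-ranked of replicate 2 and not of replicate 3. The summit was also 142 bp from the start of *Y71H2AM.20* and within 1000 bp of that of *nduc-2*, so the peak cannot be given to *cox-6B* alone. With RefSeq starts, 3 of 36 members had a thresholded peak, beside 2.47% of 19962 genes, and with the start of any transcript the member count was also 3, beside 2.59% of genes. The complex IV subunits then had thresholded peaks at 3 of 7 genes, pooled regions at 7 of 7 and a median pooled rank of 592. At Ensembl starts, 53.0% of all genes had a pooled region. The count of 3 includes the shared *cox-6B* peak, and the planned grouping took subunit and assembly genes together. With 7 genes, these shares are too uncertain to compare with those of all genes.

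Of the remaining complex IV subunits, *cox-6A* ranked 592 in the pooled list (signal 24.5), with its summit 735 bp upstream. It had no region in replicate 2, and its region in replicate 3 ranked 1937. *cox-6C* ranked 2248 (signal 16.0), 708 in replicate 2 and 5730 in replicate 3, and its summit 594 bp upstream lay nearer to the start of *grld-1*, at 206 bp. The other 2 subunit genes, *cox-4* and *cox-7C*, had pooled ranks of 5561 and 6577. All 4 genes ranked after the 396 regions that the authors retained.

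The assembly genes of complex IV, whose roles are known mainly from yeast and human, held no thresholded peak at their own starts. *cox-10*, for the enzyme that makes heme O on the way to heme A, ranked 1314 in the pooled list (signal 18.5), 4518 in replicate 2 and 2120 in replicate 3. Its summit lay 124 bp upstream, with the starts of *Y38E10A.24* and *Y38E10A.33* also within 1000 bp. *cox-14* ranked 1895 (signal 16.7) with its summit 188 bp upstream and 108 bp from the start of *rde-4*, and it had no region in replicate 2 and rank 18770 in replicate 3. Of the other 6 assembly genes, *cox-16* had a pooled region, at rank 17443, and 5 had none.

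**Figure D3:**
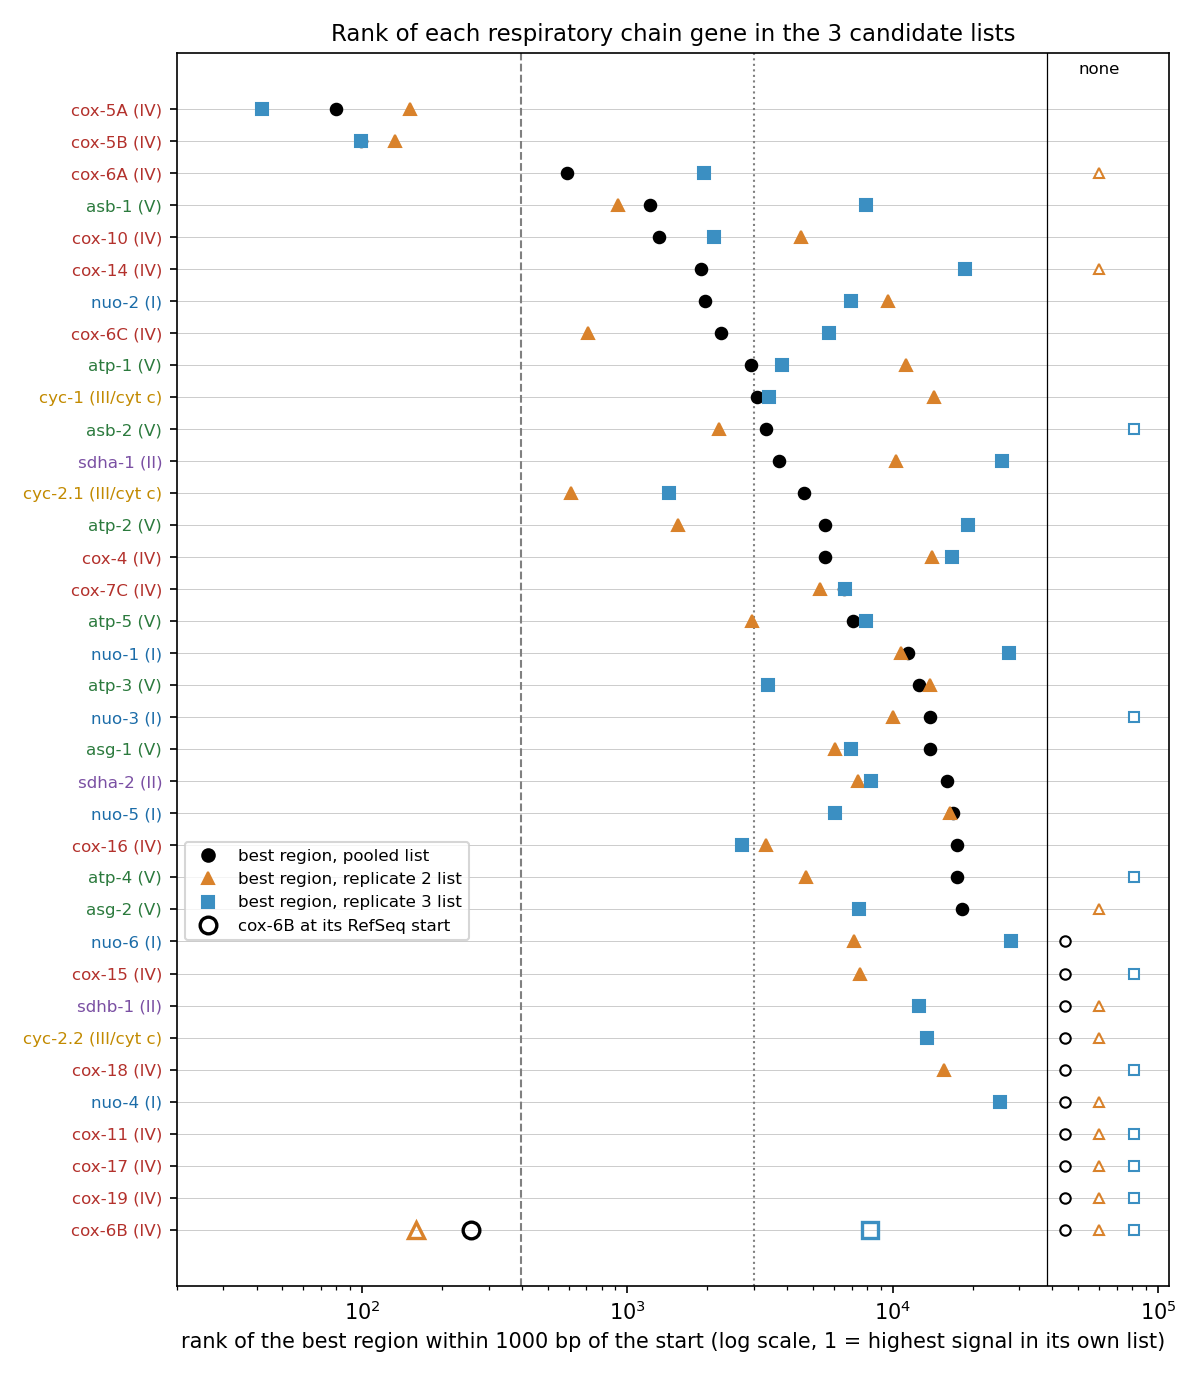
Rank of each member's best region within 1000 bp of its start (x axis, log scale, 1 = highest signal in its own list) in the pooled, replicate 2 and replicate 3 lists, with 1 row per gene coloured by complex. Open symbols right of the solid line stand for no region, and the dashed and dotted lines mark ranks 396 and 3000. *cox-5A* and *cox-5B* lie left of rank 396 in all 3 lists, and large open symbols show *cox-6B* at its RefSeq start, at pooled rank 258.

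Complex V was present throughout the pooled list but mostly at low rank. *asb-1* encodes the germline form of subunit b, a part of the stalk that holds the ATP synthase in place. It ranked 1215 (signal 18.9) in the pooled list, 919 in replicate 2 and 7896 in replicate 3, and its intergenic summit lay 186 bp upstream with no other start within 1000 bp. Its paralogue *asb-2*, on chromosome X, ranked 3324 (signal 14.6) with its summit 340 bp upstream, 2208 in replicate 2 and had no region in replicate 3. The pooled list placed *asb-1* before *asb-2*, as did replicate 2. Only 3 of 2731 genes on X had a thresholded peak (0.11%), and none of the 3 members on X did.

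The other paralogue pair of complex V, *asg-1* and *asg-2* for subunit g, ranked low in the pooled list. *asg-1* had rank 13836 (signal 9.34), 6048 in replicate 2 and 6939 in replicate 3, and its summit was 2 bp from the start of *mrps-15*, a mitochondrial ribosomal protein gene. *asg-2*, on X, had rank 18274 (signal 8.3), no region in replicate 2 and rank 7442 in replicate 3. *atp-1*, for the alpha subunit of the catalytic head, ranked 2916 (signal 15.0) with a summit 3 bp upstream of its start. Its region ranked 3839 in replicate 3, and in replicate 2 its best candidate lay 590 bp inside the gene at rank 11212. The promoter is shared with *mcrs-1*. The remaining 4 genes of complex V, *atp-2* (the catalytic beta subunit), *atp-3*, *atp-4* and *atp-5*, ranked between 5557 and 17534.

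In complex I, *nuo-2* ranked highest. It encodes a subunit of the peripheral arm and ranked 1952 (signal 16.6) in the pooled list, 9574 in replicate 2 and 6951 in replicate 3. The summit lay 177 bp upstream, within the 3′ UTR of *T10E9.14*, a gene on the same strand that ends 20 bp before *nuo-2*. *nuo-1*, *nuo-3* and *nuo-5* ranked between 11397 and 16873, and *nuo-4* and *nuo-6* had no pooled region. In complex II, *sdha-1*, for the flavoprotein that oxidises succinate, ranked 3719 (signal 14.1) on X, with rank 10284 in replicate 2 and 25889 in replicate 3, and its summit 234 bp upstream. Its paralogue *sdha-2* ranked 15982. *sdhb-1*, for the iron-sulfur subunit, had a region in replicate 3 alone, at rank 12515.

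The genes of cytochrome c and of cytochrome c1 gave another order. *cyc-1*, for cytochrome c1 of complex III, ranked 3076 (signal 14.8), with its summit 148 bp inside the gene in a coding exon. *cyc-2.1*, for cytochrome c, ranked 4633 (signal 13.3) with a summit 294 bp inside the gene in an intron, but 612 in replicate 2 (500 bp inside) and 1439 in replicate 3 (294 bp inside). Of the members it had the most pooled regions, 5, but some of these overlap each other and the lowest ranked 27613. From the RefSeq start of *cyc-2.1*, which lies 563 bp further into the Ensembl model, the best pooled summit was 269 bp upstream. The other cytochrome c gene, *cyc-2.2*, had a region in replicate 3 alone, at rank 13518.

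No list held a region within 1000 bp of *cox-6B* at its Ensembl start, nor of *cox-11*, *cox-17* and *cox-19*. The products of *cox-11*, *cox-17* and *cox-19* serve copper delivery to complex IV, as known from yeast. All 3 lists of candidates had a region at 20 members, and 6 of the 10 members without a pooled region had one in at least 1 replicate. The furthest best summit inside the 1000 bp limit was that of *cox-16*, at 967 bp. Of the members without a pooled region, *nuo-6* had the nearest pooled summit, 1114 bp away at rank 11974. The thresholded peak of *rpl-20* (summit 4750114, pooled rank 194) lay just outside the limit from the *cyc-2.1* start at 4749012. It is not counted as a peak of *cyc-2.1*.

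**Figure D4:**
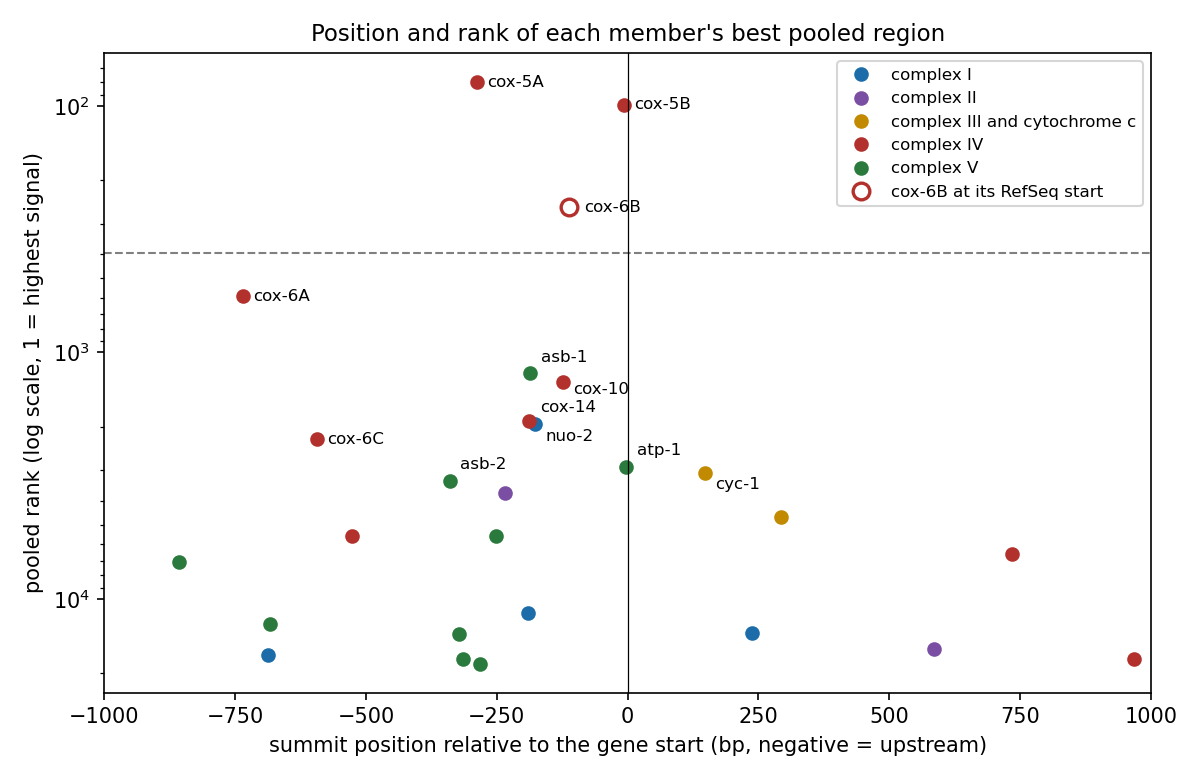
Position of each member's best pooled summit relative to its start (x axis, bp, negative values upstream) and its pooled rank (y axis, log scale, highest signal at the top), coloured by complex. All 9 members ranked 1 to 3000 have their summit upstream, and *cox-6B* is drawn as an open circle at its RefSeq start, 112 bp upstream at rank 258.

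Summits lay mainly in front of the genes. At 20 of 26 members with a pooled region (76.9%, 95% interval 56.4% to 91.0%) the best summit was upstream of the start, beside 56.3% of all genes with one. At ranks 1 to 3000 it was upstream at 9 of 9 (66.4% to 100%), beside 73.4%, which the interval holds. The median distance to the start was 291 bp for the 26 members and 434 bp for all genes. The summit fell in intergenic sequence at 15 members, in coding exons at 4, in 3′ UTRs at 3, in introns at 3 and in a 5′ UTR at 1. The libraries placed their summits within 200 bp of the pooled one in both replicates at 9 of the 26 members (34.6%, 17.2% to 55.7%). The interval holds the 19.5% of all genes. Median GC content in the 100 bp on each side of the summit was 38.8% for members and 36.3% for all genes.

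The E2F motif (TTCCCGC or TTCGCGC or TTGCCGC or TTGGCGC, either strand) was searched in the 100 bp on each side of the best pooled summit. It was found at 3 of 26 members (11.5%, 95% interval 2.45% to 30.2%) and at 10.4% of all genes with a region. At ranks 1 to 3000 it was found at 1 of 9 members (0.281% to 48.2%) and at 26.5% of all genes, which the interval holds. The 3 members were *atp-4*, *sdha-1* and *nuo-2*, with the motif 4 bp, 21 bp and 25 bp from the summit. The thresholded peaks of *cox-5A*, *cox-5B* and *cox-6B* held none in this window, whereas 55.8% of all genes with a thresholded peak did. At *cox-5B* the nearest lay 122 bp from the summit.

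The CHR motif (TTCGAA or TTTGAA, either strand) was present at 10 of 26 members (38.5%, 20.2% to 59.4%). It was present at 54.4% of all genes with a region, which the interval holds. The peaks of *cox-5A*, *cox-5B* and *cox-6B* held the CHR motif 76 bp, 70 bp and 67 bp from the summit, as did 75.3% of all genes with a thresholded peak within 100 bp. *asb-1* held it 82 bp from the summit. As the sequences above show, the *cox-5A*, *cox-6B* and *asb-1* matches all have the form TTTGAA. These 6-letter matches are frequent in all windows, and neither a match nor its absence says whether the factor binds.

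Many members lie closely behind another gene on the same strand, the spacing seen in *C. elegans* operons, where a run of genes is transcribed from a promoter in front of the first. A same-strand gene ended within 200 bp upstream of 10 of 36 members (27.8%, 95% interval 14.2% to 45.2%), beside 9.51% of all genes. With gaps of up to 1000 bp the share was 44.4% of members (27.9% to 61.9%), beside 28.9% of all genes, which the interval holds. Of the 10 members without a pooled region, 6 had the 200 bp spacing (60.0%, 26.2% to 87.8%), beside 8.69% of all genes without one. A pooled region was found at 4 of the 10 members that had it, against 22 of the 26 that did not. Among all genes the shares were 57.1% with this spacing and 52.5% without it. Whether these runs are operons was not examined, and this comparison was made after the values were seen.

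At the start of the first gene of the run, 3 of the 10 members had a thresholded peak, beside 6.32% of the 1900 genes with such spacing. No interval is given for this share, and the difference was not tested. *cox-18*, for an assembly factor that inserts a subunit into the inner membrane in yeast, lies behind *Y55F3AR.2*, whose peak ranked 159 in the pooled list (signal 52.2), 258 in replicate 2 and 261 in replicate 3. That peak held the E2F motif shown above, 9 bp from the summit, and a CHR motif within 100 bp of the summit, and *cct-8* also starts within 1000 bp of it. *nuo-4*, for a complex I subunit, lies behind *rnp-7* and *syf-2*, and the peak at *syf-2* ranked 234 (signal 40.8), 327 and 401 in the same lists. *cyc-2.1* lies 111 bp behind *rpl-20*, a cytosolic ribosomal protein gene, whose peak ranked 194 (signal 45.9), 342 and 227. Within 100 bp of the summit, the *syf-2* peak held a CHR motif and no E2F motif, and the *rpl-20* peak held neither. All 3 peaks were within the 396 highest ranks of replicate 2. In replicate 3 the *syf-2* peak, at rank 401, fell just outside them. They stand at other genes' starts, and the genes they act on were not measured.

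The other 7 runs had no thresholded peak. The region of *nuo-2* at rank 1952, described above, was also the best one within 1000 bp of the start of *T10E9.14*, the first gene of its run, 931 bp inside that gene, so this run gave no separate region. The best pooled ranks at the first genes were 3468 for *nuo-5*, 5233 for *cox-15* and 29682 for *cox-17*, and no pooled region lay at the first genes of *atp-4*, *cox-11* and *cox-19*. With gaps of up to 1000 bp allowed, the run of *cox-11* reached *lin-54*, the gene of the DREAM subunit itself, at a promoter shared with *rpl-12*. That peak ranked 101 (signal 64.3) in the pooled list, 83 in replicate 2 and 788 in replicate 3. The run of *cox-15* then reached *rpn-9*, whose peak ranked 330 (signal 33.3), 577 and 2278. At this wider gap, 5 of 16 members had a thresholded peak at the first gene, beside 3.92% of 5766 genes. This difference was not tested either.

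**Figure D5:**
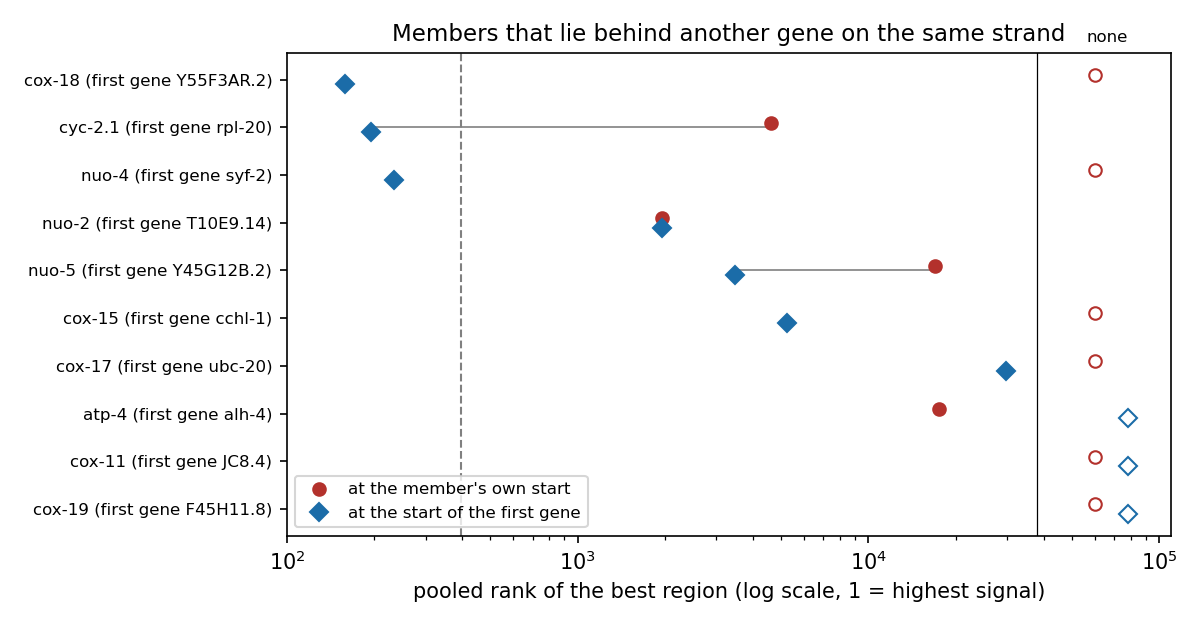
Pooled rank of the best region (x axis, log scale, 1 = highest signal) at the start of each of the 10 members that follow a same-strand gene within 200 bp (red circles) and at the start of the first gene of the run (blue diamonds). Open symbols right of the solid line stand for no region. The first genes of *cox-18*, *cyc-2.1* and *nuo-4* lie left of rank 396, the dashed line, at ranks 159, 194 and 234.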

How the data were processed

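ChIP-seq of tagged LIN-35 was used from 2 libraries (biological replicates 2 and 3), whose depth is unknown. According to deposited notes, the authors called candidate regions per replicate and on the pooled data against a control, and derived the thresholded list from these. Neither the aligner nor the caller nor the IDR cut-off is stated (not given in the sources used here). The deposited lists on build ce11 give a signal per region, used only to rank within a list, and a −log10 q-value, used for no count or rank. Gene starts are the 5′ ends in Ensembl release 115, and RefSeq starts of the same assembly were an alternative. The members and lists were chosen with earlier results of these data known. Genes named in full have a thresholded peak or a pooled rank of 1 to 3000, or belong to the paralogue pairs or *sdha-1* and *sdhb-1*. *cox-6B* and genes in front of members were added after their values were seen. Alternatives covered the distance, gene starts, nearest gene, ranks, single replicates and motif windows. The region search was checked against bedtools 2.31.1 and the motif search on simulated sequence. Intervals are Clopper-Pearson at 95%. Python 3.11.15, numpy 2.4.6, pandas 2.3.3, statsmodels 0.14.6 and matplotlib 3.10.9 were used.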

Additional observations from a re-analysis of the deposited data

How the results depend on the processing

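The count of members with a thresholded peak was 2, and 2 in each library alone, but 1 within 250 bp, 5 when the first gene of a run was used (chosen after seeing the data) and 7 with the pooled regions ranked 1 to 2000. Members with a pooled region numbered 14 within 250 bp, against 26 within 1000 bp, and between 26 and 27 with either library alone. Members with a region in both replicates numbered 12 within 500 bp, 7 within 250 bp and 9 when each replicate summit had to lie within 200 bp of the pooled one, against 21. The share of all genes moves with such settings too: it was 2.47% at the threshold and 7.90% by pooled rank 1990. Shares of all genes at 500 bp, at 250 bp and with the first gene of a run for all members are not given here. Those counts therefore do not show whether members change relative to all genes. The CHR share was 11.5% with 50 bp on each side of the summit and 65.4% with 200 bp, against 38.5% with 100 bp. The 33.0% of all genes lay outside the 95% interval at 50 bp (2.45% to 30.2%). The 54.4% at 100 bp and the 78.2% at 200 bp lay inside theirs (20.2% to 59.4% and 44.3% to 82.8%). The difference was thus seen in the narrowest window alone, and it was not tested. The other 25 results under alternatives stayed within 1.5 times the value given above, including those with RefSeq starts, where the thresholded count was 3. No paired analysis was possible because both libraries belong to 1 group. With 36 members, small differences in share cannot be resolved, and weak regions rest on a signal whose read depth is unknown.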

Other observations

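A list of 41 other genes of the pathway was also counted. It includes subunits and assembly factors with other name prefixes, the ubiquinone pathway and the ADP/ATP carriers. It is not complete and leaves out *ndua-13* and also *nduc-2*, whose start lay within 1000 bp of the *cox-6B* peak. Thresholded peaks lay at 3 of the 41 (7.32%, beside 2.47% of all genes). Pooled ranks of 1 to 3000 were reached by 11 (26.8%, beside 10.4%), and 23 had a pooled region (56.1%, close to the 53.0% of all genes). The median best rank was 3784 over the genes with a region, beside 11211 over all genes. The list was drawn up with earlier results of these data known. No interval is given for these shares, and their difference from all genes was not tested. The peak at *hpo-18*, for the epsilon subunit of the ATP synthase, ranked 242 in the pooled list, 475 in replicate 2 and 524 in replicate 3, and its summit lay 606 bp upstream at a promoter shared with *mcm-7*, a replicative helicase gene. The peak at *sco-1*, for a copper chaperone of complex IV, ranked 317, 252 and 5319, with a summit 181 bp upstream and no other start within 1000 bp. The peak at *ant-1.1*, for an ADP/ATP carrier, ranked 336, 1414 and 174, with a summit 27 bp upstream and the starts of *T27E9.2* and *abcf-2* within 1000 bp.

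Complex I genes of this list were represented by *nduf-11*, just below the threshold at rank 431 but at 325 in replicate 2 and 302 in replicate 3, and by 2 assembly factor genes. *nuaf-1* ranked 1200 in the pooled list but 9370 in replicate 2 and 10221 in replicate 3, at a promoter shared with *bir-2*. *nuaf-3* ranked 1442, and 1733 in replicate 2, with no region in replicate 3. *mev-1*, for the cytochrome b subunit of complex II, ranked 821, and 5534 in replicate 2, with no region in replicate 3 and the start of *jmjd-4* within 1000 bp. *ucr-1* and *ucr-2.3* encode core proteins of complex III. *ucr-1* ranked 2043, 3971 in replicate 2 and 22775 in replicate 3, beside *ddx-15*. *ucr-2.3* ranked 2001, and 3204 in replicate 2, with no region in replicate 3, beside *T24C4.5*. *mai-2*, for an inhibitor of the ATP synthase, ranked 728, 2659 in replicate 2 and 5672 in replicate 3. The carrier gene *ant-1.2* ranked 1413, 13815 in replicate 2 and 1757 in replicate 3. None of the 8 ubiquinone genes reached rank 3000, and 2 of them had a pooled region.

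Genes of translation in the mitochondrion and in the cytosol were counted the same way. Thresholded peaks lay at 2 of 70 mitochondrial ribosomal protein genes (2.86%, close to the 2.47% of all genes). They lay at 17 of 78 cytosolic ribosomal protein genes (21.8%). Pooled ranks of 1 to 3000 were reached by 12 (17.1%) and 41 (52.6%) of them, beside 10.4% of all genes. A pooled region of any rank was found at 50 (71.4%) and 72 (92.3%) of them, beside 72.2% of the respiratory chain genes and 53.0% of all genes. Each replicate list had a region at 28 of the 70 and 60 of the 78, beside 24.1% of all genes. Their difference from the respiratory chain genes was not tested. The mitochondrial genome, which encodes the remaining core subunits of the chain, held 20 of the 396 thresholded peaks and 22 of the 30000 pooled regions. Its copy number was not measured here, so these counts cannot be read as LIN-35 binding at its genes.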
